A study of Mus musculus with 2 samples.

Results

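The numbered Zfp genes are mouse genes for zinc finger proteins that carry a running number in place of a functional name. In RNA sequencing of CMT167R cells they were chosen by symbol (Zfp followed by digits alone), by a protein-coding biotype and by measured level, at least 1 CPM (counts per 1000000 counts of the library) in at least 1 of 2 libraries, with Zfp36 left out. Of 364 such rows 266 were kept and 98 were under 1 CPM in both libraries, 56 of them with 0 counts in both. CMT167R is a line of mouse lung carcinoma cells that is anti-PD1 resistant per its labels, PD1 being a receptor that restrains T cells. CON, the untreated library, came from these cells as grown in culture, and the other from the same line given 50 nM of a compound called PKCi in the labels for 24 h. The labels do not say which compound this is, and each group held 1 library from a single line. The libraries held 16090186 and 16071153 gene counts, so 1 CPM stood for 16.1 counts in each, and 0 counts allowed a level of up to 0.186 CPM (untreated) and 0.187 CPM (PKCi), the level of 3 counts. No difference has a replicate check, since a group held 1 library, and neither tests nor p-values are given. The 95% intervals of ratios are exact binomial intervals of the counts, which compare these libraries and cover counting error only.

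Most of these proteins belong to the C2H2 class, in which a pair of cysteines and a pair of histidines hold a zinc ion and fold a short loop that reads bases of DNA. Fingers stand in tandem, and the residues at the tip of each helix set which sequence an array binds. Many members also carry a KRAB box near the start of the protein, which recruits the scaffold protein TRIM28 and with it the histone methyltransferase SETDB1 and heterochromatin proteins. KRAB zinc finger proteins are best known for silencing retroelements and for keeping methylation at imprinted genes, and they evolve by gene duplication in clusters. A smaller number of numbered genes encode proteins with few fingers that bind RNA, ribosomes, spindle proteins or ubiquitin.

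The coding bases of a finger are printed for 5 members as examples of the class. For the 3 members with the highest and the 2 with the lowest log2 ratio between libraries, the N-terminal finger with the canonical spacing is printed from the GENCODE M21 transcript with the longest protein, 5′ to 3′ on the coding strand, with the codons for the zinc-binding cysteines and histidines in capitals. Each run spans 21 codons (63 bases), from residue 123 in Zfp217, 188 in Zfp52, 69 in Zfp646, 104 in Zfp930 and 169 in Zfp566.
Zfp217: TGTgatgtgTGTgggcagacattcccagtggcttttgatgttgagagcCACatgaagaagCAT
Zfp52: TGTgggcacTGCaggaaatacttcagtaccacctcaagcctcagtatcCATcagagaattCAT
Zfp646: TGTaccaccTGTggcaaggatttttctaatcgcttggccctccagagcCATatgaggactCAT
Zfp930: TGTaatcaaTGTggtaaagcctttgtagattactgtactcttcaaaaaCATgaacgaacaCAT
Zfp566: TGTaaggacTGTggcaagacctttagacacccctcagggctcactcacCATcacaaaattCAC
The zinc-binding codons have the same spacing in all 5 runs because the runs were found by that spacing. The bases between them differ. Across the 266 members the translated transcripts held a median of 10 matches to the finger pattern, and 4 members (Zfp839, Zfp503, Zfp330 and Zfp703) held 0. The deposited table classed 235 members as zf-C2H2 factors, 2 as ZBTB factors and 29 as no transcription factor family. A profile built from KRAB boxes matched 156 members, and 11 matched a SCAN profile, a domain through which such proteins pair.

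The labelled cell type was checked against marker genes, because the extraction text also mentions retinas. Of 9 retina markers 7 had 0 counts in both libraries and their summed level was 0.186 CPM untreated and 0.0622 CPM with PKCi. Of 12 epithelial and lung markers 6 passed 1 CPM, 5 of them above 0, and all 12 summed to 1686 CPM untreated and 2058 CPM with PKCi. The keratin genes Krt8 and Krt18 made up most of this, at 933 and 643 CPM untreated and 1182 and 765 CPM with PKCi. Krt7 was lower (43.5 and 29.8 CPM), Epcam was at 3.48 and 6.28 CPM and Cdh1 at 2.92 and 3.36 CPM, and the lung lineage markers Nkx2-1, Sftpc, Sftpb and Scgb1a1 had 0 counts in both. Of 8 leukocyte markers 5 had 0 counts in both, Ptprc among them, and all 8 summed to 10.9 and 7.09 CPM, with Lyz2 the highest untreated (8.27 and 3.11 CPM). The 8 fibroblast and endothelial markers summed to 10.6 and 8.46 CPM, most of it Col1a1 (8.89 and 4.36 CPM). Of 5 neural and embryonic stem cell markers 4 had 0 counts in both and Sox2 was at 24.5 and 11.9 CPM. The part of these markers in the results was not tested, and in bulk RNA fewer cells of a type and less RNA per cell cannot be told apart.

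The numbered Zfp genes were, as a set, modestly higher in the PKCi library, with few large differences. Of the 266 members 175 (65.8%) had a log2 ratio above 0 and 91 below, and the median log2((PKCi + 1)/(CON + 1)) in CPM was 0.22 with quartiles at −0.09 and 0.53. Over all 12273 genes at the same level filter the median was −0.01, and over the 10943 protein-coding ones it was −0.02 with 48.5% above 0. At least 2-fold higher on that scale were 10 members (3.76%), where the same call held for 6.53% of all genes and 6.46% of protein-coding genes. At least 2-fold lower were 2 members (0.752%), against 5.13% of all genes and 5.36% of protein-coding genes. These shares describe the libraries, because the levels that chose the members are those compared. Within 1.5-fold of the untreated level on the same scale lay 75.9% of members and 66.6% of the 10677 other protein-coding genes. The summed level of the members was 5876 CPM untreated and 6729 CPM with PKCi, a ratio of 1.15, so they took 0.588% and 0.673% of all counts.

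**Figure D1:**
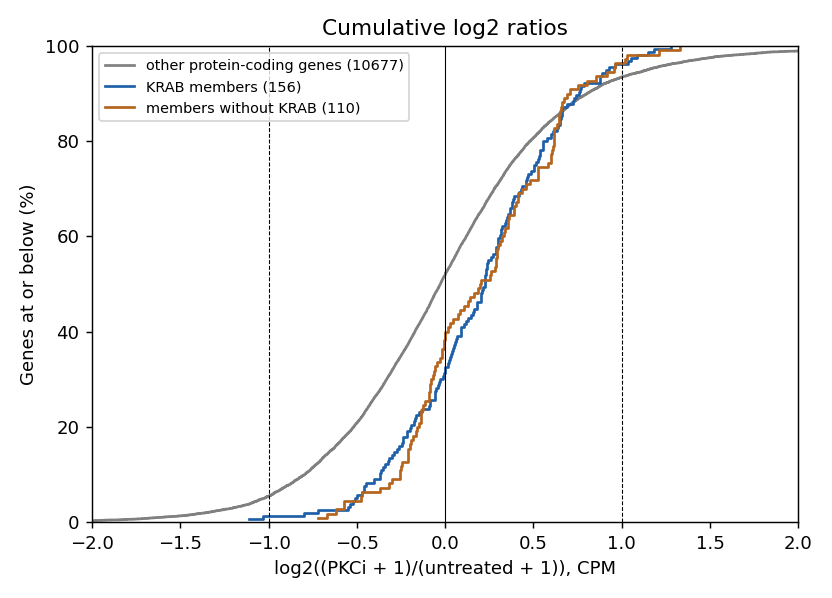
Cumulative share of genes (%) against the log2 ratio of PKCi over untreated CPM (pseudocount 1 CPM) for 156 members with a KRAB match, 110 members without one and 10677 other protein-coding genes, with dashed lines at 2-fold. Both member curves lie to the right of the grey curve between −1 and 0.5 and reach 100% before it.

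The difference in medians was seen at middle levels more than at the lowest ones. Among members with a mean of 5 to 20 CPM the median log2 ratio was 0.23 (107 genes), and among the other protein-coding genes in that range it was 0.00 (2030 genes). At 20 to 100 CPM the medians were 0.30 (92 members) and −0.05 (5050 genes). At 1 to 5 CPM the order was the other way, 0.05 for 60 members and 0.17 for 1061 genes. The 6 members at a mean of 100 CPM or more had a median of −0.20, with 5 of 6 below 0, and 1 member had a mean under 1 CPM. Longer genes had higher ratios in both sets: with a listed length of 5 kb or more the medians were 0.29 (117 members) and 0.02 (4669 genes), and under 3 kb they were 0.04 (60 members) and −0.08 (2936 genes). The part of length in the members' median was not tested beyond these strata.

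Membership at the level filter turned on few counts for some genes. Just inside stood Zfp978 (18 counts untreated and 16 with PKCi), Zfp433 (21 and 13) and Zfp456 (5 and 23). Just outside stood Zfp969 (15 and 5 counts), Zfp791 (15 and 12) and Zfp965 (5 and 14). Of the 266 members 12 were under 1 CPM in a library, 5 of which passed through the PKCi library alone and 7 through the untreated library alone. Of the numbered genes with a KRAB match 69.0% (156 of 226) passed the filter, and of those without one 79.7% (110 of 138). The part of sequence shared between genes in these shares was not tested.

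**Figure D2:**
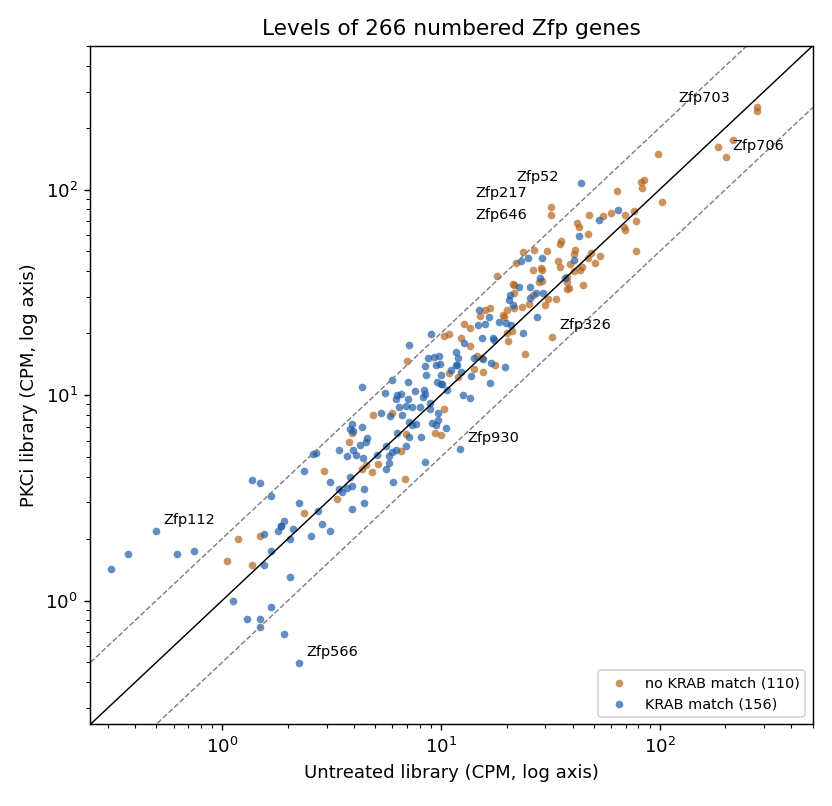
Level of each of the 266 members in the untreated (x) and PKCi (y) library in CPM, both on log axes, with points coloured by KRAB match, a solid line at equal levels and dashed lines at a plain 2-fold ratio. Members without a KRAB match fill the upper end, and most points lie near the line of equal levels.

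Per length, the 5 most abundant members in the untreated library were proteins with 0 to 3 matched fingers, and several act outside DNA binding. On the TPM scale (counts divided by listed gene length and scaled to a common sum) the median member was at 8.72 untreated and 10.2 with PKCi, against 26.6 and 26.2 over protein-coding genes. Zfp703, a corepressor whose human counterpart is amplified in luminal breast cancer, had the highest TPM level in both libraries, 268 untreated and 243 with PKCi. Zfp706, a small protein with 1 matched finger, followed untreated at a TPM of 131, and was at 94.2 with PKCi. Zfp207, a kinetochore protein that loads BUB3, was at a TPM of 105 and 85.7. Zfp106, an RNA-binding protein needed by motor neurons and muscle, was at a TPM of 87.2 and 75.8. These 4 were lower in the PKCi library, with Zfp706 at 200 and 144 CPM (1.39-fold lower, 95% interval 1.32 to 1.47) farthest from equality. Zfp598, a ubiquitin ligase that marks collided ribosomes, went the other way, at a TPM of 83.5 untreated and 110.3 with PKCi. Zfp52 held a TPM of 45.0 untreated and 111 with PKCi, which placed it after Zfp703 alone in the PKCi library. Zfp740 followed Zfp598 there, at a TPM of 62.4 untreated and 95.4 with PKCi (1.52-fold higher).

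On the log2(CPM + 1) scale 10 members were at least 2-fold higher with PKCi, and they mixed KRAB and other proteins. By the plain CPM ratio, which is the fold given below, 16 members were at least 2-fold higher and 3 lower, since the pseudocount shrinks ratios of low genes. The share of all genes by the plain ratio was not computed. With a smaller pseudocount of 0.25 CPM the members' counts were also 16 and 3, where 8.12% of protein-coding genes were higher and 6.54% lower. Zfp217, whose human counterpart is an oncogene that binds CtBP corepressors, had 513 counts untreated and 1315 with PKCi (31.9 and 81.8 CPM). Its ratio was 2.57 (95% interval 2.32 to 2.85) and its log2 ratio of 1.33 was the highest of all members. Zfp217 (ENSMUSG00000052056) lies at 170108643 to 170148103 of chromosome 2, minus strand (GRCm38), and has 8 matched fingers without a KRAB match. Zfp52, a KRAB protein with 14 matched fingers, had 705 and 1731 counts (43.8 and 107.7 CPM). That was 2.46-fold higher (95% interval 2.25 to 2.69), from a gene (ENSMUSG00000051341) on chromosome 17 at 21535539 to 21562601, plus strand. Zfp646, with 27 matched fingers, had 512 and 1205 counts (2.36-fold, 95% interval 2.12 to 2.62), and it lies on chromosome 7 from 127876221 to 127885996, plus strand (ENSMUSG00000049739). These 3 had counts high enough that the lower end of each interval was above 2-fold.

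The other 7 had intervals that reached 2-fold or below. Zfp260, a zinc finger activator known from heart muscle, was at 23.8 and 49.7 CPM (2.09-fold, 95% interval 1.85 to 2.37). Zfp239, a short finger protein that binds DNA and RNA, was at 18.1 and 37.8 CPM (2.08-fold, 95% interval 1.81 to 2.41). The KRAB genes Zfp948, Zfp113 and Zfp974 were at 9.01 and 19.8 CPM, 7.15 and 17.5 CPM, and 4.35 and 10.9 CPM. All 3 had ratios between 2.20 and 2.50. Zfp112 had 8 counts untreated and 35 with PKCi (4.38-fold, 95% interval 1.996 to 10.9), and Zfp418 had 22 and 62 (2.82-fold, 95% interval 1.71 to 4.82). Both are KRAB genes whose untreated level was under 2 CPM, so their ratios rest on few counts. The 6 members past a plain 2-fold alone were Zfp30 (6 and 27 counts), Zfp456 (5 and 23), Zfp786 (10 and 27), Zfp442 (12 and 28), Zfp976 (24 and 60) and Zfp821 (113 and 235).

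Fewer members were 2-fold lower than higher, and on the log2(CPM + 1) scale the lowest ratio was −1.11. Zfp566, a KRAB gene, had 36 counts untreated and 8 with PKCi (2.24 and 0.498 CPM, 4.49-fold lower, 95% interval 2.05 to 11.2). Of the 100-base windows of its longest transcript 13.1% also occur in a transcript of another gene, so reads could be shared. Zfp930, a KRAB gene with 12 matched fingers, had 197 and 88 counts (12.2 and 5.48 CPM, 2.24-fold lower, 95% interval 1.73 to 2.91). Zfp566 and Zfp930 were the only members at least 2-fold lower on the log2(CPM + 1) scale. Zfp326, a subunit of a complex that joins RNA polymerase II to splicing, had 520 and 309 counts and was 1.68-fold lower (95% interval 1.46 to 1.94). Zfp367, a protein with 2 matched fingers, had 1250 and 808 counts, the most of these 10 genes, and was 1.55-fold lower (95% interval 1.41 to 1.69). Zfp979, Zfp956, Zfp97, Zfp428, Zfp770 and Zfp248 made up the rest of the 10 lowest among members with at least 2 CPM in a library, each 1.52- to 1.79-fold lower. In Zfp97 68.0% of the 100-base windows were shared with another gene and in Zfp979 16.99%. Zfp808, under that level with 31 and 11 counts, had a log2 ratio of −0.80 and was 2.81-fold lower (95% interval 1.38 to 6.21).

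**Figure D3:**
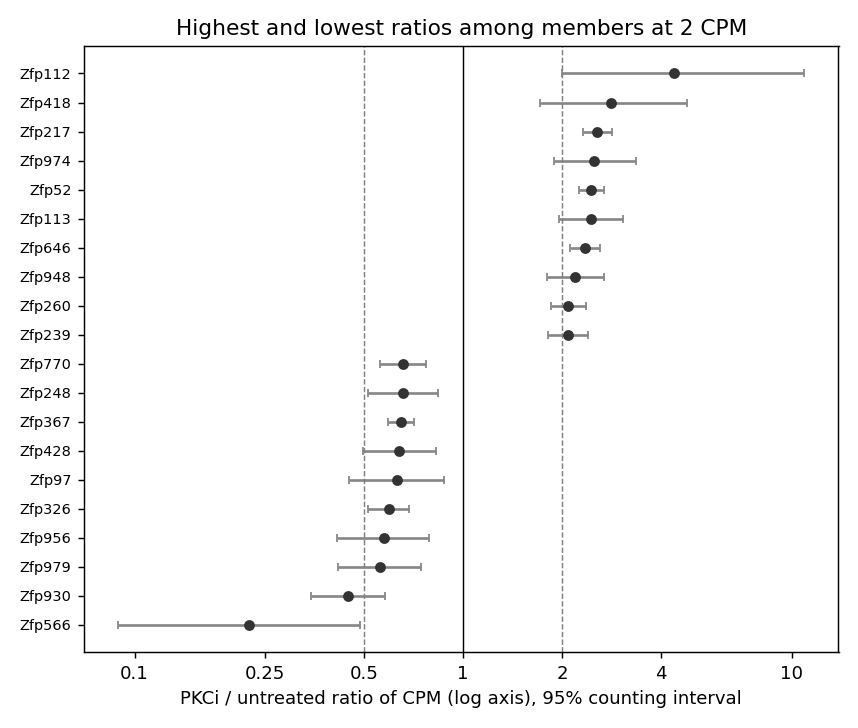
Ratio of PKCi to untreated CPM (x, log axis) for the 10 highest and 10 lowest members with at least 2 CPM in a library, with points at the ratio and bars at the 95% counting interval; dashed lines mark 2-fold. The bars of Zfp217, Zfp52 and Zfp646 lie wholly above 2-fold, and those of Zfp112 and Zfp566 are the widest.

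Members with the KRAB box and members without it had similar medians at different levels. The 156 KRAB members had a median log2 ratio of 0.22, and 107 (68.6%) were above 0. Of the 156, 6 (3.85%) were at least 2-fold higher and 2 (1.28%) lower. The 110 without a match had a median of 0.20, and 68 (61.8%) were above 0. Of the 110, 4 (3.64%) were at least 2-fold higher and 0 lower. Over protein-coding genes 6.46% were at least 2-fold higher, 5.36% lower and 48.5% above 0. Median untreated levels were 7.15 CPM and 26.4 CPM, and per length the TPM medians were 5.63 and 14.5. Summed over members, KRAB genes were at 1594 CPM untreated and 1993 CPM with PKCi (ratio 1.25) and the others at 4281 and 4736 CPM (ratio 1.11). The 11 SCAN members had a median log2 ratio of 0.20, and 8 of them were above 0. Whether KRAB and other members differ cannot be tested with 1 library per group.

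Members with many fingers had higher log2 ratios than members with few, chiefly among members without a KRAB match. The median log2 ratio was 0.00 for 49 members with 1 to 5 matched fingers, 0.25 for 83 with 6 to 10, 0.24 for 83 with 11 to 15, and 0.30 for 47 with 16 or more. The share above 0 was 51.0%, 62.7%, 71.1% and 80.9% in the same order. Among members without a KRAB match the medians were −0.01 (40 genes), 0.26 (36), 0.59 (16) and 0.38 (14), and among KRAB members 0.21 (9), 0.23 (47), 0.23 (67) and 0.23 (33). Spearman's rho between finger count and log2 ratio was 0.34 across the 110 genes without a KRAB match and 0.11 across the 156 KRAB genes. Over all 266 members rho was 0.20 for finger count and 0.16 for listed length. These are descriptions across genes of the same 2 libraries. The median listed length of the members without a KRAB match was 5713.5, 5137, 5266.5 and 6750.5 bases in the same order of bins, and the part of length was not tested. The 29 members that the deposited table puts in no transcription factor family had a median of −0.02, against 0.23 for the 235 zf-C2H2 members.

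**Figure D4:**
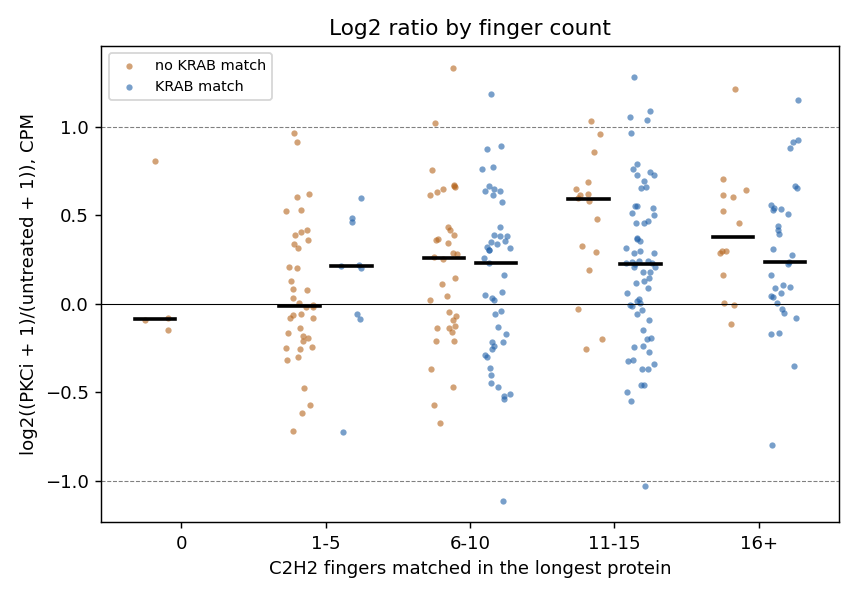
Log2 ratio of PKCi over untreated CPM (y, pseudocount 1 CPM) for each member by number of matched C2H2 fingers (x, 5 bins) and KRAB match (colour), with black bars at medians; horizontal spread within a bin is random. The medians without a KRAB match run from −0.01 at 1 to 5 fingers to 0.59 at 11 to 15, and those with one stay between 0.21 and 0.23.

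Genes with named roles in transcription were above 0 about as often as the members as a whole. Of 31 such genes 26 passed the level filter, and their median log2 ratio was 0.29. Zfp217 alone (3.85%) was past 2-fold, on the higher side, where 6.46% of protein-coding genes were higher and 5.36% lower. Above 0 were 19 genes (73.1%), and 7 were below, against 65.8% above 0 over all members. Zfp608 was at 26.5 and 50.9 CPM (1.92-fold, 95% interval 1.70 to 2.16), and its relative Zfp609 at 59.8 and 76.9 CPM. Zfp335, a factor needed for T cell maturation, was at 30.6 and 50.0 CPM (1.63-fold, 95% interval 1.46 to 1.83). Zfp516, a factor of brown fat, was 1.59-fold higher, Zfp263 1.58-fold, Zfp462 1.57-fold, Zfp281, a pluripotency factor, 1.55-fold and Zfp292 1.54-fold. Those below 0 included Zfp703, its relative Zfp503 (54 and 50 counts), and the BTB-domain genes Zfp131 and Zfp651, which were at 103 and 86.6 CPM and at 9.45 and 6.53 CPM. Zfp410, which activates Chd4, was at 37.7 and 37.5 CPM. Zfp143, which binds promoters at chromatin loops, was at 21.7 and 26.6 CPM.

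Of the genes with roles in RNA, ribosomes, spindle and ubiquitin more were below 0 than above. All 13 passed the filter, with 4 (30.8%) above 0, 9 below and a median log2 ratio of −0.07. Over protein-coding genes 48.5% were above 0 and the median was −0.02. None of the 13 was past 2-fold either way, where 6.46% of protein-coding genes were higher and 5.36% lower. With 13 genes these counts cannot tell the list from that background. Besides Zfp326, Zfp706, Zfp207 and Zfp106, the ubiquitin ligase gene Zfp91 was at 185 and 161 CPM (1.15-fold lower, 95% interval 1.09 to 1.21). Zfp622, a factor of ribosome subunit maturation, was at 55.4 and 74.2 CPM (1.34-fold higher, 95% interval 1.23 to 1.46). Zfp638, Zfp800, Zfp330, Zfp346, Zfp830 and Zfp593 had intervals that included equality. Summed, the 13 genes were at 1255 CPM untreated and 1121 CPM with PKCi.

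Known guardians of imprints and silencers of retroelements differed little. Of 9 genes 5 passed the level filter, with 3 above 0, 2 below and 0 past 2-fold. Over protein-coding genes 48.5% were above 0, 6.46% at least 2-fold higher and 5.36% lower. Zfp568, which represses a placental promoter of Igf2, was at 22.8 and 33.6 CPM (1.47-fold, 95% interval 1.29 to 1.69). Zfp445, which maintains imprints, was at 64.6 and 79.7 CPM (1.23-fold, 95% interval 1.14 to 1.34), and Zfp57, which has the same role, at 7.40 and 8.71 CPM (1.18-fold, 95% interval 0.916 to 1.52). Zfp809, which silences murine leukaemia virus in stem cells, had 273 and 229 counts (1.19-fold lower, 95% interval 0.995 to 1.43), and Zfp932, which silences endogenous retroviruses, at 9.70 and 7.53 CPM. The stem cell gene Zfp42 and Zfp708 had 0 counts in both libraries, Zfp600 had 0 and 1, and Zfp989 had 3 and 0. Of their 100-base windows 100% in Zfp708, 68.5% in Zfp600 and 46.5% in Zfp989 also occur in another gene, and 22.1% in Zfp932. Reads of these genes could be shared, so low counts need not mean absent RNA.

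The machinery that KRAB proteins recruit held genes on both sides of 0. Of 28 listed genes for TRIM28, SETDB1, heterochromatin proteins and DNA methylation partners, all 28 were measured, and their median log2 ratio was −0.23. Uhrf1 alone (3.57%) was past 2-fold, on the lower side, where 5.36% of protein-coding genes were lower and 6.46% higher. Above 0 were 11 genes (39.3%), and 17 were below. Of protein-coding genes 48.5% were above 0, with a median of −0.02. With 28 genes these counts cannot tell the list from that background. Trim28 itself held 8809 counts untreated and 6529 with PKCi, or 547 and 406 CPM (1.35-fold lower, 95% interval 1.31 to 1.39). Setdb1 was at 108 and 112 CPM, a difference within counting error (1.04-fold, 95% interval 0.973 to 1.11). The heterochromatin protein genes Cbx5, Cbx3 and Cbx1 were 1.59-, 1.46- and 1.17-fold lower. Uhrf1 and Dnmt1, which copy DNA methylation at replication, were 2.15-fold lower (298 and 139 CPM) and 1.81-fold lower (330 and 182 CPM). The histone methyltransferase genes Suv39h2 and Suv39h1 were 2.08- and 1.69-fold lower; with the pseudocount Suv39h2 stood just under 2-fold. Fam208a, a core subunit of the HUSH silencing complex, was 1.76-fold higher (40.8 and 71.9 CPM), and its partners Mphosph8 and Pphln1 were both 1.34-fold lower. Sumo2, for a protein modifier that TRIM28 uses, had 216 and 363 counts (1.68-fold higher, 95% interval 1.42 to 2.001). Also higher were Morc3 (1.39-fold), Atf7ip, a SETDB1 partner (1.27-fold), Smarcad1 (1.21-fold), and the remodeller genes Chd3 (1.18-fold) and Chd4 (1.11-fold).

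Many members lie in gene clusters, and neighbours did not always share a direction. Numbered Zfp genes chained over gaps of at most 250 kb gave 13 clusters with at least 5 members, which held 106 members, 6 of the clusters on chromosome 7. In 10 clusters the median log2 ratio was above 0 and in 3 below, and in 4 every member was above 0. The cluster on chromosome 13 (67038596 to 67827002) held 15 members, all with a KRAB match, with a median of 0.37 and 11 above 0. On chromosome 17 the cluster from 21383748 to 22456689 held 14 KRAB members with a median of 0.30 and 12 above 0, Zfp52 and Zfp948 among them. The other chromosome 17 cluster (32771236 to 33631779) had a median of −0.22 over 9 members, with 6 below 0, from −0.50 (Zfp81) to 0.66 (Zfp871). Over all 106 clustered members the median was 0.23, and over the 160 others it was 0.20.

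**Figure D5:**
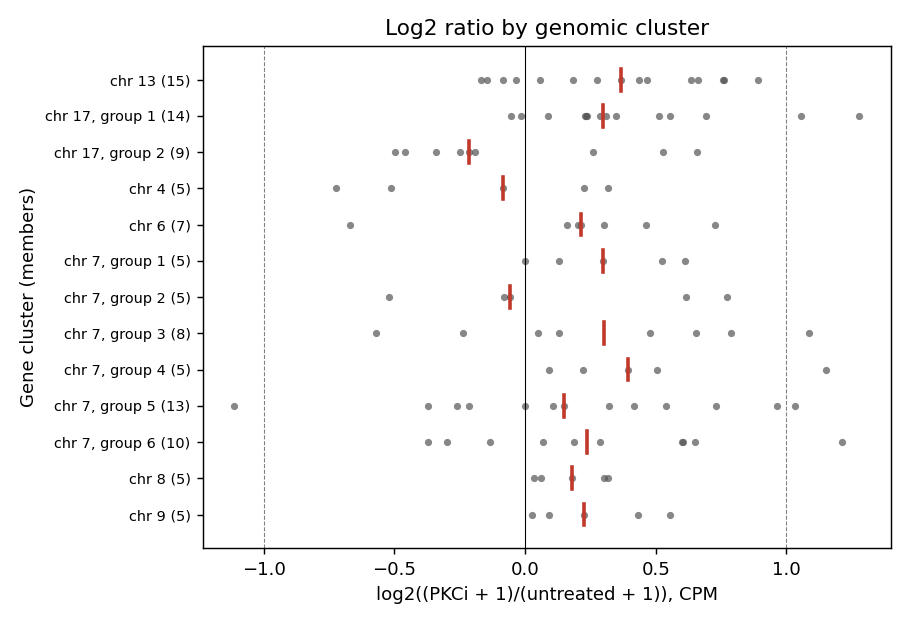
Log2 ratio of PKCi over untreated CPM (x, pseudocount 1 CPM) of each member in the 13 gene clusters (y, chromosome and number of members), with red bars at cluster medians and dashed lines at 2-fold. The chromosome 17 cluster with 9 members has a median of −0.22, and the chromosome 7 cluster with 13 members spans from −1.11 (Zfp566) to 1.03 (Zfp260).

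Zfp52 and Zfp948 are neighbours on the plus strand of chromosome 17, 4.41 kb apart, and both were at least 2-fold higher in the PKCi library. Their promoter windows (300 bases, from 250 before the start to 50 after, RefSeq, GRCm38.p6) lie at chr17:21535289-21535588 and chr17:21566728-21567027 on the plus strand. They are shown because these neighbours were both higher, 5′ to 3′, with runs of at least 12 bases common to both in capitals.
Zfp52: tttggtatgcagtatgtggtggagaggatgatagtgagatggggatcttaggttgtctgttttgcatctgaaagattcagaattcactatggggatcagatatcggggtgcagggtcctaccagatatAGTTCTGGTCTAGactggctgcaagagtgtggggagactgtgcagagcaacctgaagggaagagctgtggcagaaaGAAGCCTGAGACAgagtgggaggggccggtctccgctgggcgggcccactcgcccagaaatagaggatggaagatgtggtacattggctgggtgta
Zfp948: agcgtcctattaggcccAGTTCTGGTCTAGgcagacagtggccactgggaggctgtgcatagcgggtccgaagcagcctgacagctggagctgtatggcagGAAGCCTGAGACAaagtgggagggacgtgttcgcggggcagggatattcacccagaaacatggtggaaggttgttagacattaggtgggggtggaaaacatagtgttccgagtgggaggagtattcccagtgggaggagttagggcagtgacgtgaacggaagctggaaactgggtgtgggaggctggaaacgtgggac
The windows share 2 runs of 13 bases. Each run, searched on both strands, occurs in these 2 of all 32851 promoter windows. The runs were picked as common to both windows, so their presence in these 2 was fixed by that choice. Whether the runs bear on the levels was not tested. Neither window held a match to the motifs searched below, which says only that those letters are not in it.

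Zfp566 and Zfp260 are neighbours on chromosome 7 that point away from each other, 4.25 kb apart, and had opposite directions at the ends of the ranking. Their windows lie at chr7:30090461-30090760 on the minus strand and chr7:30094826-30095125 on the plus strand, shown 5′ to 3′ on each gene's own strand with the YY1 match in capitals.
Zfp566: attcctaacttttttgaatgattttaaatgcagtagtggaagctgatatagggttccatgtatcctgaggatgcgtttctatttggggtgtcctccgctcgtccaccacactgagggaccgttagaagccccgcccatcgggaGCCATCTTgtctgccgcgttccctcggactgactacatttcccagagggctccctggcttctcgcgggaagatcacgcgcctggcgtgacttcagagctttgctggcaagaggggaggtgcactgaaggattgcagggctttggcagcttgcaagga
Zfp260: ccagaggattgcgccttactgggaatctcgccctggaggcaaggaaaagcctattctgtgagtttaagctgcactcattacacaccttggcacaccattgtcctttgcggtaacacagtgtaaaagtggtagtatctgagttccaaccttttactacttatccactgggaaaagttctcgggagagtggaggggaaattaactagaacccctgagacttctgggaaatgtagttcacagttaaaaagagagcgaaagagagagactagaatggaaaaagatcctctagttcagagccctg
The window of Zfp566 held AAGATGGC on the opposite strand and 14 CpG pairs, and that of Zfp260, whose RefSeq start is 299 bases from the deposited one, held 5 CpG pairs and no match.

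Pooled over members, promoter windows resembled those of other measured genes in the motifs searched, but KRAB and other members differed for ETS and NRF1. RefSeq windows were found for 224 of 266 members (275 windows), and each motif was searched on both strands with overlaps allowed. The ETS core CCGGAAG was in 55 of 275 member windows, 18.6% of windows of protein-coding genes at 1 CPM and 8.86% of all 32851 windows. The shares for YY1 (AAGATGGC) were 5.09%, 4.64% and 2.75%, for E2F (TTTNNCGC) 9.82%, 8.64% and 5.17%, and for AP-1 (TGANTCA) 4.36%, 5.23% and 7.81%. The TATA box TATAAA was in 6.91%, 6.84% and 13.6%. The NRF1 core (GCGC, any base, then TGCGC) was in 8.00% of member windows and 10.5% of protein-coding ones, with 3.70% in KRAB members and 14.2% in the others. The median window held 16 CpG pairs in members and 21 in protein-coding genes at 1 CPM. A match is a description of letters, not a bound site.

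Other families of zinc finger factors, chosen by symbol, also had medians above 0. They are read here against the 6.53% of all genes that were at least 2-fold higher and the 5.13% lower. The 31 measured Zbtb genes, which join fingers to a BTB domain, had a median log2 ratio of 0.37, with 5 (16.1%) at least 2-fold higher, 0 lower and 25 above 0. The 16 Zscan and Zkscan genes had a median of 0.45, with 3 (18.8%) at least 2-fold higher, 0 lower and 15 above 0. The 19 measured genes named Klf or Sp with a number had a median of 0.82, and 14 were above 0. Of them 7 (36.8%) were at least 2-fold higher and 0 lower, and 31.6% lay within 1.5-fold, compared with 75.9% of the numbered Zfp genes. This symbol rule also admits Sp100, Sp110 and Sp140, which have 0 matched fingers, so these values may not describe zinc finger factors alone. None of these differences between families was tested.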

How the data were processed

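RNA of CMT167R cells was sequenced in 2 libraries, 1 untreated and 1 given PKCi, grouped by the labelled treatment. The authors deposited a single table of 54532 genes with whole-number counts, used as raw counts although its name speaks of FPKM. HISAT2 2.0.5 and GRCm38 (mm10) are named in the submitters' processing notes. The counter, the strand setting and the annotation release were not given in the sources used here. Of the 364 numbered Zfp identifiers all were in GENCODE M21, 354 with the same start and end.

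Counts were scaled to each library's total (CPM), and the log2 ratio used a pseudocount of 1 CPM; a fold is the plain CPM ratio. Levels between genes used TPM from the listed lengths. Exact conditional binomial (Clopper-Pearson) 95% intervals cover counting error only; without molecular identifiers, PCR copies count as reads. The procedure was tested on data simulated with planted differences and counting error only, which does not model variation between replicate libraries. Proteins were translated from GENCODE M21 transcripts; fingers are cysteine and histidine pairs spaced by 2 to 4, 12 and 3 to 5 residues in the longest protein. KRAB and SCAN profiles were built from these proteins and searched with HMMER 3.4 (E-value 1e-05, any isoform), and 28 members shared over 10% of 100-base windows with another gene. Members, lists and motifs were chosen with earlier results of these data known. The named genes are the 10 highest and 10 lowest log2 ratios at 2 CPM, the 5 highest per length, genes next to the level filter and role genes at 1.5-fold; others were chosen after their values were seen. Scalings included edgeR 4.0.16 TMM factors, without a test. Python 3.11.15, pandas 2.3.3 and scipy 1.17.1 were used.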

Additional observations from a re-analysis of the deposited data

How the results depend on the processing

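The members' median log2 ratio stayed between 0.17 (every numbered gene with a count) and 0.26 (filter at 5 CPM) over the 8 alternatives tried, and the difference from the protein-coding median under the same setting between 0.17 and 0.30. Counts past 2-fold here are on the log2 scale with a pseudocount, not by the plain ratio. The number at least 2-fold higher was 8 to 11 except with a pseudocount of 0.25 CPM, where it was 16, including the 10 named above. Zfp112 and Zfp418 were lost with TPM and with the filter at 5 CPM, Zfp974 was lost and Zfp972 gained with TPM, and Zfp821 was gained with median ratio scaling. The number at least 2-fold lower was 1 with median ratio scaling, with TPM, with the filter at 5 CPM and without members that share over 10% of their 100-base windows, an alternative chosen after seeing the data; it was 3 with the smaller pseudocount and 2 otherwise. With the pseudocount Zfp930 was under 2-fold lower with median ratio scaling and TPM, where its plain PKCi to untreated ratios were 0.461 and 0.450. Zfp566 was left out by the 5 CPM filter and by the shared windows. The KRAB median ranged from 0.18 to 0.27 and that of the corepressor list from −0.25 to −0.19. The plain folds of the 25 genes named by the rule stayed within their counting intervals under all 3 scalings. Each scaling multiplies every plain fold by the same factor, here a small one, so this does not test single genes. No paired analysis was possible because each group held 1 library, and no replicate could be left out. Depth limits the members at the lowest levels most: the interval of Zfp112 (8 and 35 counts) ran from 1.996- to 10.9-fold.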
